A study of Mus musculus with 10 samples.

Results

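XCL1, CCL3, CCL4, CCL5 and FLT3L are soluble proteins that lymphocytes use to call and sustain other leukocytes, and CCR1 is one of the receptors that read them. The genes were taken as listed, Xcl1, Ccl3, Ccl4, Ccl5, Ccr1 and Flt3l, and their rows were found by gene identifier in a table of 45706 genes. Of these 6 genes, 5 had a row under their own identifier, and all 5 passed the filter on low counts. Flt3l was not analysed here under its own identifier, and an overlapping row is described at the end under its own name.

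XCL1 is released mainly by NK cells and CD8+ T cells and attracts type 1 dendritic cells, which carry its receptor XCR1. CCL3, CCL4 and CCL5 are inflammatory CC chemokines made by activated NK cells, T cells and macrophages. CCR1 binds CCL3 and CCL5, CCR3 binds CCL5, and ACKR2 is a scavenging receptor that removes CC chemokines without signaling. FLT3L, through the receptor FLT3, is the growth factor on which dendritic cells depend. In tumors, NK cells are known as a source of XCL1, CCL5 and FLT3L.

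The libraries came from 10 whole subcutaneous tumors, removed on day 4 from C57BL/6 mice of 8 weeks. The cells were of a Braf-mutant mouse melanoma line, either COX-competent (Ptgs+/+, 4 tumors) or made deficient in Ptgs1 and Ptgs2, the COX-1 and COX-2 genes, by CRISPR (Ptgs-/-, 3 tumors). A further 3 Ptgs-/- tumors grew in NK cell-depleted mice, which by the labels had received 200 µg of anti-NK1.1 (clone PK136) and 30 µg of anti-asialo-GM1 on days 0 and 2. Nothing in the labels says that the depleting antibodies were matched by a control antibody in the other mice. The study's methods list control IgG among the antibodies of its depletion experiments, but do not say whether mice of these tumors received it. Both depleting antibodies can bind cells other than NK cells, such as subsets of T cells. Levels are counts scaled to a library total (CPM) after TMM scaling. Because only 3′ ends of transcripts were sequenced, a count does not grow with transcript length. CPM of different genes are set side by side on that ground alone, and other differences in how well genes are counted were not checked.

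Libraries held 8150556 to 12839174 counts, and 3 counts, taken as the detection floor for counting error only, equal 0.234 to 0.368 CPM before TMM scaling. Replicates differed by 8.06 to 33.2 chi-square per degree of freedom, the highest values belonging to pairs with Ptgs+/+ replicate 3. The label codes split the libraries, Ptgs+/+ replicate 4 and Ptgs-/- replicate 3 carrying EB042 and the other 8 EB046. All NK cell-depleted tumors carry EB046, so results among EB046 libraries are given beside the pooled ones. Ptgs2 lay between 96.7 and 353 CPM in Ptgs+/+ tumors and between 26.0 and 74.0 CPM in both sets of Ptgs-/- tumors, and Ptgs1 between 128 and 173 and between 76.1 and 104 CPM. Host cells in the tumor carry both genes intact. Ncr1, the gene of the NK receptor NKp46, had no count in any NK cell-depleted tumor. Of 8 melanocytic markers, Tyrp1 and Mlana had no count in Ptgs+/+ tumors. Mitf averaged 22.2 CPM there, Kit, counted here among mast cell markers too, 5.37 CPM, and the rest less. Few markers of the label melanoma were thus well detected, and which cells the Mitf counts came from was not tested.

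Positions are on GRCm38. Xcl1 (ENSMUSG00000026573) lies at chr1:164931644-164935527 on the minus strand. Ccl5 (ENSMUSG00000035042, chr11:83525778-83530518, minus strand), Ccl3 (ENSMUSG00000000982, chr11:83647844-83649355, minus strand) and Ccl4 (ENSMUSG00000018930, chr11:83662584-83664683, plus strand) share a stretch of 139 kb, with 13.2 kb between Ccl3 and Ccl4. Ccr1 (ENSMUSG00000025804) lies at chr9:123962124-123968692 on the minus strand, within the 179 kb that also hold Xcr1 and Ccr3. Xcl1 is overlapped on the other strand by Gm20743, which had 8 counts over all libraries, and Ccl3, Ccl4, Ccl5 and Ccr1 overlap no annotated gene.

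Promoter windows show the sequence from 250 to 6 bases before the RefSeq start, 5′ to 3′ on the gene's strand. Of 10 ligand and receptor genes looked up, 8 had a window. Printed are those of Xcl1 and Xcr1, the ligand and the receptor with the largest differences below, and of Ccl3, a ligand that did not pass the test. Capitals mark the T-box core TCACACC, here as its reverse complement, and the ETS core GGAAGT on either strand.
Xcl1 (chr1:164935528-164935772, minus strand): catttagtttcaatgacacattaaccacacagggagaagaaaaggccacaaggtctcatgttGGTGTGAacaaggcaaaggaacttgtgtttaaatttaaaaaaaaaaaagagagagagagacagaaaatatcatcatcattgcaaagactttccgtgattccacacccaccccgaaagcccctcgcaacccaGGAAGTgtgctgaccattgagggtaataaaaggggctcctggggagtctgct
Ccl3 (chr11:83649384-83649628, minus strand): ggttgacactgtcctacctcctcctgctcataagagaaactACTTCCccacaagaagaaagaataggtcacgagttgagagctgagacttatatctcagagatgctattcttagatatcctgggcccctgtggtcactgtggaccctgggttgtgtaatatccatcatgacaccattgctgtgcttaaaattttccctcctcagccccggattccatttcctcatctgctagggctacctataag
Xcr1 (chr9:123862035-123862279, minus strand): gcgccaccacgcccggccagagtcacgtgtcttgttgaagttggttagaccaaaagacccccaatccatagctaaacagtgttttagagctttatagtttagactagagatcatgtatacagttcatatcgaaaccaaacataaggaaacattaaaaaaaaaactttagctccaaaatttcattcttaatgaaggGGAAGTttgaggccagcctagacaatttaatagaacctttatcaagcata
Both strands were searched for these cores. They were also searched for the CRE half-site TGACG, for the AP-1 site TGANTCA and for the STAT site TTCNNNGAA, none of which overlaps a marked core in these windows. The T-box core was found in the Xcl1 window and in neither of the others, and 3.27% of 32851 promoter windows of this length hold it. An ETS core was found once in each of the 3 windows, and 19.2% of all windows hold it. The CRE half-site (17.3% of windows), the AP-1 site (6.66%) and the STAT site (6.90%) matched none of the 3. A match is a description of these letters and not a measured binding site.

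Loss of COX in the tumor cells was compared first, in mice with NK cells. Xcl1, Ccl5 and Ccl4 rose in Ptgs-/- tumors, 15.0-, 7.20- and 2.56-fold, and Ccl3 and Ccr1 did not pass the test. Of the other receptors described here, Xcr1 rose.

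Xcl1 was measured at 1.27, 0.536, 0.630 and 0.628 CPM in the 4 Ptgs+/+ tumors, which is 16, 5, 7 and 6 counts. In the 3 Ptgs-/- tumors it reached 12.003, 10.5 and 13.3 CPM, or 99, 103 and 152 counts. Xcl1 was thus close to the floor in Ptgs+/+ tumors and was higher in every Ptgs-/- tumor, with no overlap. The log2 fold change was 3.91 with a standard error of 0.28 (95% interval 3.30 to 4.52, adjusted p = 1.47e-05, from the quasi-likelihood test of edgeR after Benjamini-Hochberg adjustment, named edgeR from here on) and 3.77 among EB046 libraries (adjusted p = 0.000875, edgeR).

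Ccl5 was the most abundant of the 4 listed chemokines in Ptgs-/- tumors. Its level was 13.1, 8.90, 13.7 and 10.1 CPM in Ptgs+/+ tumors and 54.7, 73.6 and 120.1 CPM in Ptgs-/- tumors. Every Ptgs-/- tumor lay above every Ptgs+/+ tumor, and the Ptgs-/- tumors spread by more than the Ptgs+/+ tumors did (SD 33.7 against 2.30 CPM). The log2 fold change was 2.85 with a standard error of 0.26 (95% interval 2.28 to 3.41, adjusted p = 6.12e-05, edgeR) and 2.46 among EB046 libraries (adjusted p = 0.000875, edgeR), where the highest tumor is left out.

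Ccl4 was 6.19, 4.40, 6.39 and 6.70 CPM in Ptgs+/+ tumors and 19.3, 11.8 and 14.7 CPM in Ptgs-/- tumors. The groups again did not overlap. Its log2 fold change of 1.36 (standard error 0.23, 95% interval 0.85 to 1.86, adjusted p = 0.00197, edgeR) lay under the size of 1.5 that the study's call rule asks, and it was 1.48 among EB046 libraries (adjusted p = 0.0130, edgeR). Ccl3, whose gene neighbors Ccl4, had 3.34, 0.965, 3.96 and 2.09 CPM in Ptgs+/+ tumors and 5.21, 3.07 and 4.22 CPM in Ptgs-/- tumors. The Ccl3 groups overlapped, and the log2 difference of 0.66 had a 95% interval from -0.20 to 1.52 (adjusted p = 0.255, edgeR). With 9 to 48 counts a library in these 7 tumors, a difference of the size seen for Ccl4 lies inside that interval. Among EB046 libraries the Ccl3 value was 0.59 (adjusted p = 0.462, edgeR).

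Ccr1 was 23.1, 21.02, 10.9 and 23.0 CPM in Ptgs+/+ tumors and 22.8, 30.0 and 20.7 CPM in Ptgs-/- tumors. The groups overlapped, Ptgs+/+ replicate 3 being the lowest of all. The log2 difference was 0.33 (95% interval -0.20 to 0.86, adjusted p = 0.359, edgeR), and 0.56 among EB046 libraries (adjusted p = 0.227, edgeR).

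At an adjusted p at or under 0.05, 3 of the 5 measured genes were called higher and 0 lower, against 12.1% of the 14550 genes tested called higher and 11% called lower. With a log2 fold change of at least 1.5 added, 2 of 5 were called higher, Xcl1 and Ccl5, against 3.14% of genes. The median log2 fold change of the 5 was 1.36, beside -0.01 over all genes tested. In whole tumors, fewer cells of a type and less RNA per cell cannot be told apart.

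**Figure D1:**
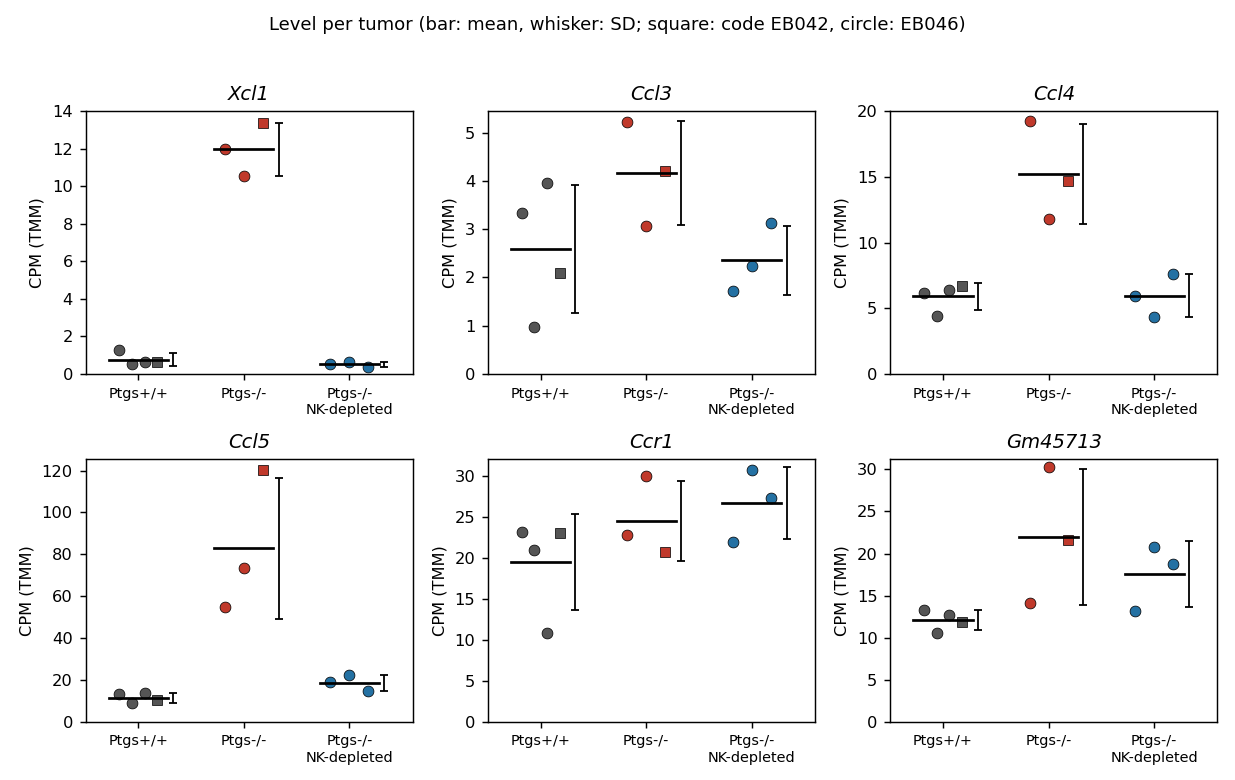
Level (CPM, linear axes from 0) of each ligand or receptor gene and of the Gm45713 row in each tumor, by group; squares are EB042 libraries, bars are means and whiskers SDs. Xcl1 stood at 10.5 to 13.3 CPM in Ptgs-/- tumors and at or under 1.27 CPM in all others, whereas Ccl3 and Ccr1 overlapped between groups.

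The order of levels differed between the groups of tumors. In Ptgs+/+ tumors Ccr1 came first at 19.5 ± 5.83 CPM (SD, n = 4), then Ccl5 at 11.5 ± 2.30, Ccl4 at 5.92 ± 1.03, Ccl3 at 2.59 ± 1.33 and Xcl1 at 0.766 ± 0.339. The ranges of Ccr1 and Ccl5 overlapped there, as did those of Ccl3 and Xcl1. In Ptgs-/- tumors Ccl5 led at 82.8 ± 33.7 CPM (SD, n = 3), followed by Ccr1 at 24.5 ± 4.86, Ccl4 at 15.2 ± 3.79, Xcl1 at 11.96 ± 1.41 and Ccl3 at 4.17 ± 1.07. Only the neighbors Ccl4 and Xcl1 overlapped in that order. NK cell-depleted tumors had Ccr1 at 26.7 ± 4.42 CPM (SD, n = 3), Ccl5 at 18.5 ± 3.77, Ccl4 at 5.97 ± 1.64, Ccl3 at 2.36 ± 0.717 and Xcl1 at 0.526 ± 0.130. There, Ccr1 and Ccl5 met at 22.0 and 22.1 CPM, and the other neighbors did not overlap.

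NK cell depletion of the hosts of Ptgs-/- tumors was compared next, to ask which of these genes differ when the host is depleted of NK cells. Xcl1, Ccl5 and Ccl4 were higher in NK cell-competent than in NK cell-depleted hosts, 22.2-, 4.48- and 2.55-fold, and Ccl3, Ccr1 and the other 4 receptors described here did not pass the test. The Ptgs-/- tumors of NK cell-competent mice are shared with the first comparison, so the pair of comparisons are not independent.

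Xcl1 in NK cell-depleted tumors was 0.536, 0.651 and 0.392 CPM, that is 5, 7 and 4 counts. These values lie just above the floor and under every NK cell-competent Ptgs-/- tumor. The log2 fold change of NK cell-competent over NK cell-depleted tumors was 4.47 with a standard error of 0.33 (95% interval 3.75 to 5.20, adjusted p = 0.000174, edgeR) and 4.41 among EB046 libraries (adjusted p = 0.00386, edgeR).

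Ccl5 fell to 18.8, 22.1 and 14.6 CPM in NK cell-depleted tumors, below all NK cell-competent Ptgs-/- tumors. Unlike Xcl1 it stayed well above the floor, with 149 to 238 counts a library. The log2 fold change was 2.16 with a standard error of 0.28 (95% interval 1.56 to 2.77, adjusted p = 0.00221, edgeR) and 1.82 among EB046 libraries (adjusted p = 0.0157, edgeR).

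Ccl4 was 5.90, 4.37 and 7.64 CPM in NK cell-depleted tumors, without overlap with the NK cell-competent Ptgs-/- tumors. The log2 fold change was 1.35 with a standard error of 0.25 (95% interval 0.79 to 1.90, adjusted p = 0.0205, edgeR). This call was lost in 7 of 20 alternatives, at adjusted p-values up to 0.106 (edgeR, without NK cell-depleted replicate 2), and among them were EB046 libraries alone (adjusted p = 0.0937), the fit without NK cell-depleted replicate 1 (0.0914) and that without Ptgs-/- replicate 3 (0.0633).

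Ccl3 was 1.72, 2.23 and 3.13 CPM in NK cell-depleted tumors, where only the highest reached into the range of NK cell-competent tumors. Its log2 difference of 0.81 (95% interval -0.13 to 1.75, adjusted p = 0.536, edgeR) did not pass. Ccr1 was 22.0, 30.8 and 27.3 CPM and overlapped with the NK cell-competent tumors, with a log2 difference of -0.13 (95% interval -0.69 to 0.44, adjusted p = 0.889, edgeR). Among EB046 libraries these were 0.82 for Ccl3 (adjusted p = 0.669, edgeR) and 0.01 for Ccr1 (adjusted p = 0.997, edgeR).

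In this comparison 3 of 5 genes were called higher in NK cell-competent tumors and 0 lower, against 0.515% and 0.921% of the 14550 genes tested, and Xcl1 and Ccl5 passed the size rule that 0.323% of genes passed. Their median log2 fold change was 1.35, beside -0.01 over all genes. NK markers moved with them. The 12 NK cell markers summed to 106 to 225 CPM in NK cell-competent and 10.8 to 11.5 CPM in NK cell-depleted Ptgs-/- tumors, and 11 of 11 tested were called higher in the former. Ncr1 and Prf1, the perforin gene, had no count in any NK cell-depleted tumor. All 9 tested T cell markers were also higher on average in NK cell-competent tumors (median log2 fold change 0.80). Of these, 0 were called and 4 had an unadjusted edgeR p under 0.05. Of 12 monocyte and macrophage markers, 11 were higher on average (median 0.40). Of those 12, 1 was called and 7 had an unadjusted edgeR p under 0.05. Skeletal muscle markers moved the other way, from 119 to 407 CPM up to 2566 to 5952 CPM in NK cell-depleted tumors, with 8 of 8 called. The part of muscle RNA, of T cells and of macrophages in these differences was not tested.

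**Figure D2:**
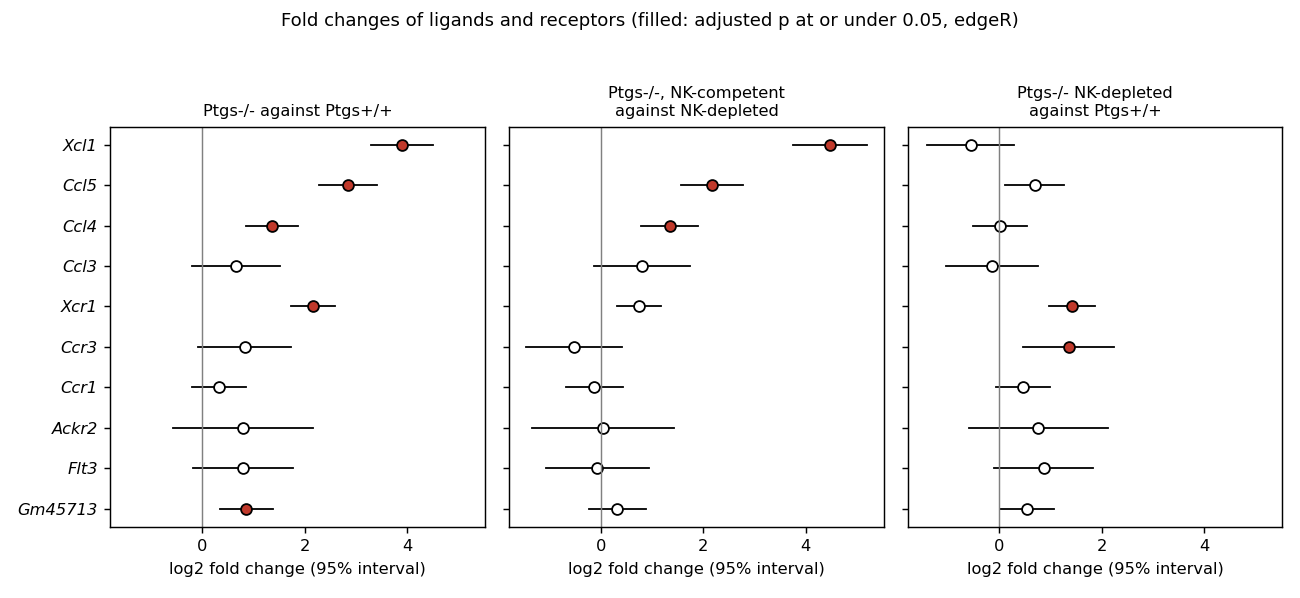
Log2 fold changes (x axis) with 95% intervals of ligands, receptors and the Gm45713 row in the 3 comparisons; filled points have an adjusted p at or under 0.05. Xcl1, Ccl5 and Ccl4 are filled in the first and second comparison and open in the third, where Xcr1 and Ccr3 are filled.

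Ptgs-/- tumors of NK cell-depleted mice were then set against Ptgs+/+ tumors, which differ in COX and in the depletion. None of the 5 measured genes passed the test: 0 were called higher and 0 lower, against 6.63% and 5.87% of genes tested and 2.01% by the size rule. At an unadjusted p under 0.05 there was 1, Ccl5, and DESeq2 called 0. The levels of Xcl1 overlapped (log2 difference -0.56, 95% interval -1.41 to 0.28, adjusted p = 0.389, edgeR), as did those of Ccl4 (0.01, interval -0.53 to 0.54, adjusted p = 0.988), Ccl3 (-0.15, interval -1.05 to 0.75, adjusted p = 0.862) and Ccr1 (0.45, interval -0.07 to 0.98, adjusted p = 0.255). Ccl5 stood apart from these. Its NK cell-depleted tumors, at 14.6 to 22.1 CPM, all lay above the Ptgs+/+ range of 8.90 to 13.7 CPM, with a log2 difference of 0.69 (95% interval 0.11 to 1.26, adjusted p = 0.115, edgeR). This value passed in 3 of 20 alternatives, at an adjusted p of 0.0305 without the count filter, 0.0461 with only the groups compared and 0.0471 without Ptgs-/- replicate 3 (all edgeR), and was 0.0929 among EB046 libraries. Markers of T cells, which also make CCL5, summed to 4.86 to 7.64 CPM in Ptgs+/+, 17.6 to 44.4 CPM in Ptgs-/- and 14.0 to 20.1 CPM in NK cell-depleted tumors. NK cell markers were lower in NK cell-depleted than in Ptgs+/+ tumors (6 of 11 called), summing to 10.8 to 11.5 against 25.3 to 52.5 CPM, and 8 of 8 skeletal muscle markers were higher (median log2 fold change 5.52), at 2566 to 5952 against 22.9 to 188 CPM. The part of each of these cell types in the chemokine values was not tested.

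The receptors were then read across the same tumors. Xcr1, the receptor of XCL1 and itself a marker of type 1 dendritic cells, was 2.14, 2.57, 2.52 and 2.09 CPM in Ptgs+/+ tumors and 8.85, 12.3 and 10.2 CPM in Ptgs-/- tumors. In NK cell-depleted tumors it was 5.36, 5.76 and 7.54 CPM, between the other groups and overlapping with neither. Its log2 fold change was 2.16 with COX loss (standard error 0.20, adjusted p = 6.39e-05, edgeR; 2.17 among EB046 libraries) and still 1.41 in NK cell-depleted Ptgs-/- against Ptgs+/+ tumors (standard error 0.20, adjusted p = 0.00105, edgeR; 1.38 among EB046 libraries). The step between NK cell-competent and NK cell-depleted Ptgs-/- tumors, 0.75 (95% interval 0.31 to 1.18), did not pass (adjusted p = 0.131, edgeR). In NK cell-depleted tumors the ligand Xcl1 thus lay within or under the Ptgs+/+ range and its receptor above it.

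Ccr3, a CCL5 receptor best known on eosinophils, ranged from 3.002 to 4.81 CPM in Ptgs+/+, 3.03 to 10.3 CPM in Ptgs-/- and 5.09 to 14.4 CPM in NK cell-depleted tumors. Only the last lay wholly above Ptgs+/+ tumors (log2 fold change 1.36, standard error 0.41, adjusted p = 0.049995, edgeR), and that call was lost in 10 of 20 alternatives, by every library left out except Ptgs-/- replicates 1 and 2 and NK cell-depleted replicate 3, and most of all without NK cell-depleted replicate 2 (0.88, adjusted p = 0.241). Ackr2, at 0.214 to 2.15 CPM, and Flt3, at 0.809 to 4.31 CPM, passed in none of the 3 comparisons. Flt3 was 2.06, 0.858, 0.809 and 3.77 CPM in Ptgs+/+ tumors, 3.52, 3.07 and 3.16 CPM in Ptgs-/- tumors and 3.11, 2.79 and 4.31 CPM in NK cell-depleted tumors. Without Ptgs+/+ replicate 4, its highest in that group, the log2 difference with COX loss was 1.34 in place of 0.79 (adjusted p = 0.0283 in place of 0.227, edgeR), and that of NK cell-depleted against Ptgs+/+ tumors 1.41 in place of 0.86 (adjusted p = 0.0332 in place of 0.239, edgeR). Among EB046 libraries the same Flt3 differences were 1.40 (adjusted p = 0.0581, edgeR) and 1.42, which passed (adjusted p = 0.0490, edgeR). Of these 5 receptors, Ccr1 included, 1 was called higher with COX loss, 0 with NK cells and 2 in NK cell-depleted against Ptgs+/+ tumors, and 0 were called lower. Over all genes tested, 12.1%, 0.515% and 6.63% were called higher in these comparisons, and 11%, 0.921% and 5.87% lower. With NK cells, 1 of the 5, Xcr1, had an unadjusted p under 0.05 (edgeR), and DESeq2 called 0.

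**Figure D3:**
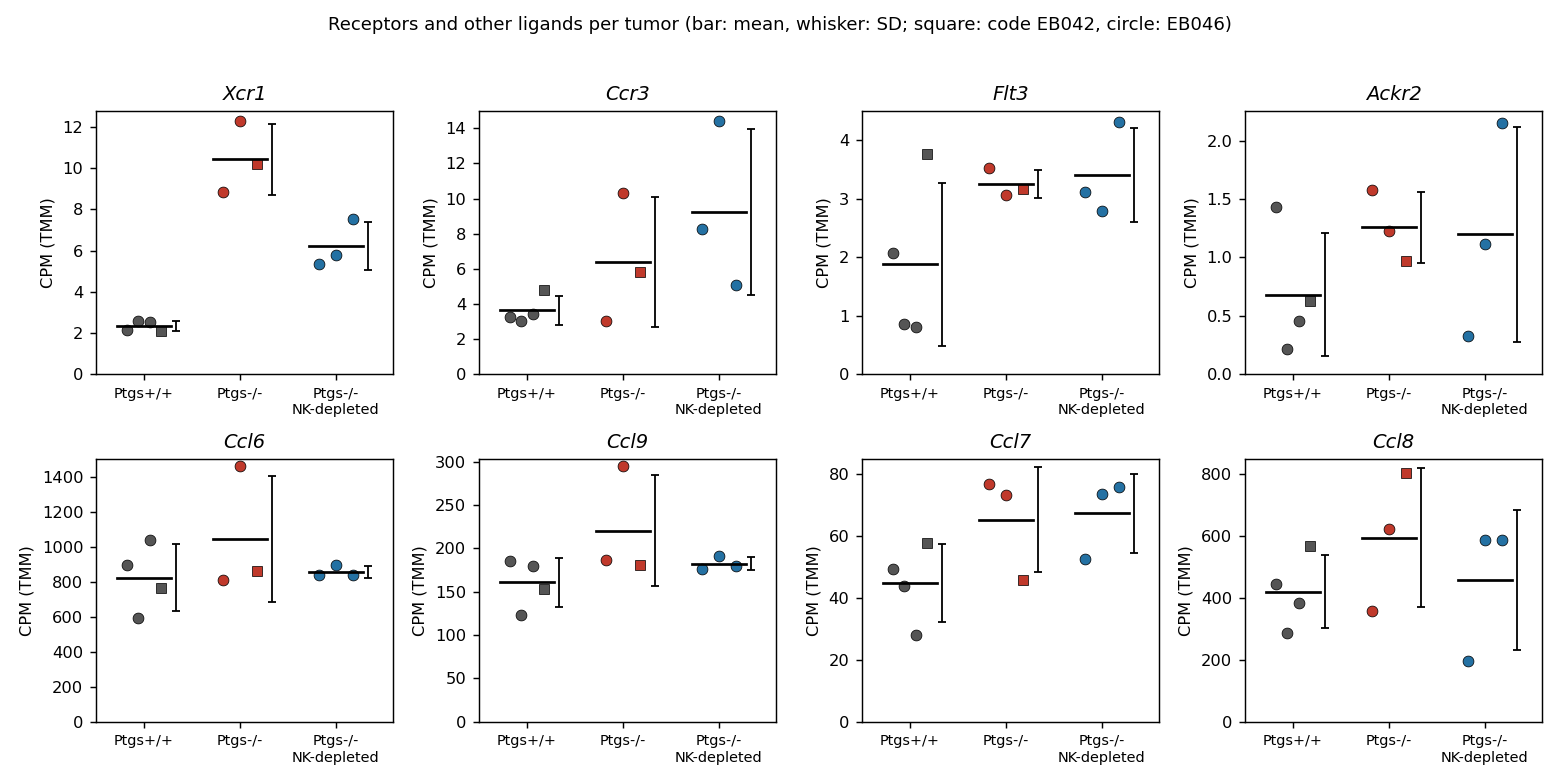
Level (CPM, linear axes from 0) of the receptors Xcr1, Ccr3, Flt3 and Ackr2 and of the ligands Ccl6, Ccl9, Ccl7 and Ccl8 in each tumor; squares are EB042 libraries, bars means and whiskers SDs. Xcr1 separated into 3 levels, 2.09 to 2.57, 5.36 to 7.54 and 8.85 to 12.3 CPM, whereas the groups overlapped for each of the 4 ligands.

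Other CC chemokines, CCR1 ligands among them, were read as well. Ccl6, Ccl7, Ccl8 and Ccl9, made largely by macrophages and stromal cells, were not called in any comparison (0 of 4 each by edgeR and by DESeq2). Unadjusted edgeR p-values under 0.05 numbered 2 with COX loss, 0 with NK cells and 1 in NK cell-depleted against Ptgs+/+ tumors. Their mean levels in Ptgs-/- tumors, 1046 CPM for Ccl6, 594.0 for Ccl8, 220.7 for Ccl9 and 65.1 for Ccl7, were set against 824, 420 and 161 and 44.6 CPM in Ptgs+/+ tumors. All 4 log2 differences with COX loss lay between 0.34 and 0.54 (adjusted p from 0.0918 to 0.362, edgeR). Ccl7 passed among EB046 libraries alone (0.93, adjusted p = 0.0306, edgeR), and Ccl9 without the count filter (0.48, adjusted p = 0.0346, edgeR).

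Effector cytokines that activated lymphocytes make beside these chemokines were mostly near the floor. Ifng, Csf2, Lta and Fasl did not pass the filter on low counts. Ifng had 0, 0, 0 and 2 counts in Ptgs+/+ tumors, 3, 4 and 7 in Ptgs-/- tumors and 1, 0 and 0 in NK cell-depleted tumors. Lta had 2, 0, 2 and 1, then 3, 9 and 10, then 1, 4 and 2 counts, and Fasl 3, 1, 1 and 2, then 7, 3 and 21, then 2, 1 and 2. In CPM, Ifng, Lta and Fasl were each higher in every Ptgs-/- than in every Ptgs+/+ tumor. Csf2 had 1 count in Ptgs-/- replicate 2 and no count elsewhere. The separation rests on few counts. For Fasl, 3 counts in Ptgs-/- replicate 2 (0.307 CPM) lay above 3 counts in Ptgs+/+ replicate 1 (0.238 CPM). The share of all genes that separate in this way was not counted. DESeq2, run without that filter, called 3 of the 7 cytokines with COX loss, beside 3584 of 27098 genes, and 0 in the other comparisons. Tnf and Tnfsf10 were not among them, so they include genes that the filter removed. Xcl1, with 99 to 152 counts in the same Ptgs-/- tumors, was better detected than Ifng, Lta and Fasl. Among the 3 cytokines tested, Ltb, which encodes lymphotoxin beta, rose with COX loss (1.90, standard error 0.46, adjusted p = 0.0126, edgeR), a call that was lost without Ptgs-/- replicate 3 (1.33, adjusted p = 0.0699) and among EB046 libraries (1.19, adjusted p = 0.126). Tnf (1.06, adjusted p = 0.0562) and Tnfsf10 (0.67, adjusted p = 0.0986), which encodes TRAIL, did not pass (edgeR), although Tnf passed in 7 of 19 alternatives, at adjusted p-values down to 0.0213, and Tnfsf10 without Ptgs-/- replicate 1 (0.92, adjusted p = 0.0184).

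Markers of cells that can make or read these chemokines were counted in the same tumors. With COX loss, 10 of 11 tested NK cell markers rose (median log2 fold change 2.24), among them Gzma at 10.1, 47.9 and 0.257 CPM on average in Ptgs+/+, Ptgs-/- and NK cell-depleted tumors. Also higher were 8 of 9 T cell markers (median 2.71), 6 of 8 type 1 dendritic cell markers (1.20) and 10 of 12 monocyte and macrophage markers (0.96), and 5 of 8 neutrophil markers were lower (-2.48). Skeletal muscle markers were higher as well (4 of 8 called, median 1.79), at 22.9 to 188 CPM in sum in Ptgs+/+ and 119 to 407 CPM in Ptgs-/- tumors, as were 5 of 8 fibroblast markers (0.56). Over all genes tested, 12.1% were called higher with COX loss and 11% lower. In NK cell-depleted tumors, type 1 dendritic cell markers, Xcr1 among them, summed to 159 to 174 CPM, beside 170 to 210 in NK cell-competent Ptgs-/- and 78.7 to 90.7 CPM in Ptgs+/+ tumors, and 0 of 8 were called between the first and second (2 at an unadjusted edgeR p under 0.05, 0 by DESeq2). In both sets of Ptgs-/- tumors the largest terms of the sum were Wdfy4, Cadm1 and Batf3. In NK cell-depleted and NK cell-competent Ptgs-/- tumors, Wdfy4 averaged 53.2 and 58.3 CPM, and Cadm1 50.8 and 45.0 CPM. The 2 genes with an unadjusted p under 0.05 were Xcr1 and Batf3. Batf3 averaged 30.0 and 49.1 CPM, with groups that overlapped (adjusted p = 0.260, edgeR). Of the 8 genes, 6 were on average higher in NK cell-competent tumors. Of the 8 genes of dendritic cell development, which include Irf8, 5 were higher and 1 lower with COX loss and 0 were called between NK cell-competent and NK cell-depleted tumors (5 at an unadjusted edgeR p under 0.05, 3 by DESeq2). The part of each cell type in the chemokine levels was not tested.

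**Figure D4:**
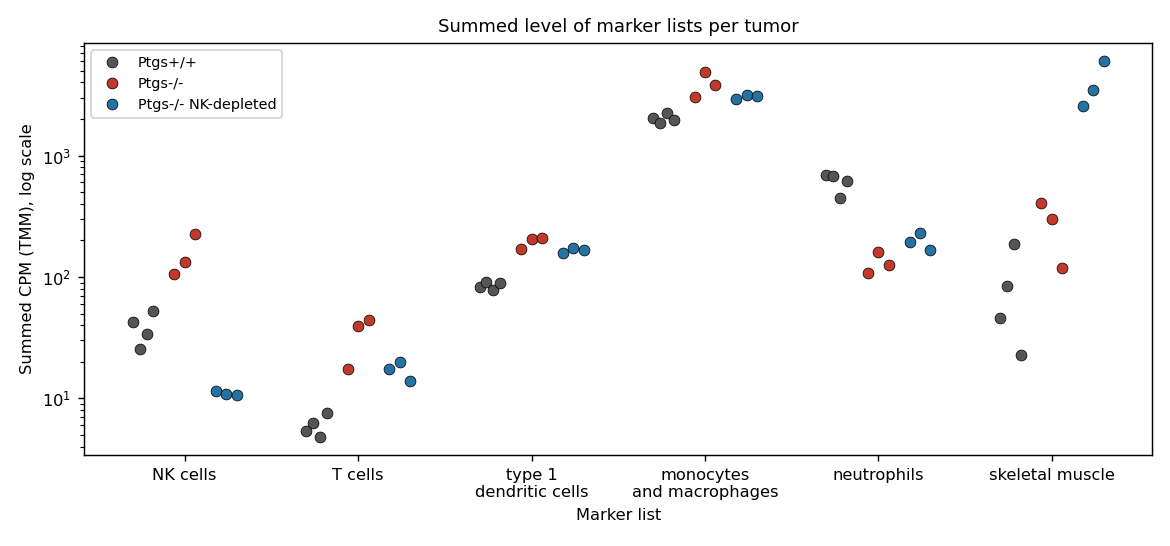
Summed level (CPM, log axis) of 6 marker lists in each tumor, colored by group. NK cell markers lay at 10.8 to 11.5 CPM in NK cell-depleted and 106 to 225 CPM in NK cell-competent Ptgs-/- tumors, and type 1 dendritic cell markers at 159 to 174 and 170 to 210 CPM.

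The chemokines were also set against the NK cell markers of the same tumor, as a percent of the summed CPM of the 12 markers. This measure was chosen after the levels had been seen. Xcl1 was 2.996%, 2.12%, 1.87% and 1.20% of the NK sum in Ptgs+/+ tumors and 11.3%, 7.89% and 5.94% in Ptgs-/- tumors, so that no Ptgs-/- tumor overlapped with Ptgs+/+ tumors. The log2 ratio was 2.06 (two-sided exact permutation p = 0.0571, n = 4 and 3, the smallest p this design allows, and 0.114 adjusted over the 4 chemokines). Ccl5 was 30.9%, 35.2%, 40.5% and 19.3% in Ptgs+/+ and 51.5%, 55.1% and 53.4% in Ptgs-/- tumors, also without overlap (0.81, exact permutation p = 0.0571, adjusted 0.114). Ccl4 (log2 ratio -0.63, exact permutation p = 0.229) and Ccl3 (-1.15, exact permutation p = 0.171) were on average lower against the NK sum, with groups that overlapped. Marker sums differ in composition and depth, and T cells and macrophages, whose markers rose too, also make CCL3, CCL4 and CCL5. NK cell-depleted tumors are left out of these ratios, and their NK sum was still 10.8 to 11.5 CPM. Ccl4, Ccl3, Ccl5 and Xcl1 averaged 5.97, 2.36, 18.5 and 0.526 CPM there, beside 5.92, 2.59, 11.5 and 0.766 CPM in Ptgs+/+ tumors. A percent of the NK sum is therefore not a level per NK cell, and the part of other cells in it was not tested.

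**Figure D5:**
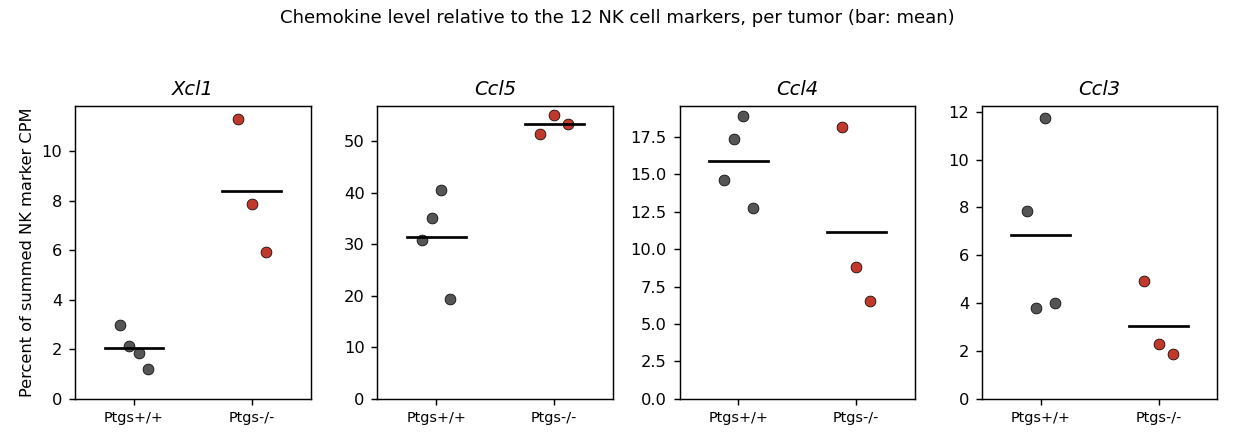
Level of each chemokine as a percent of the summed CPM of the 12 NK cell markers in each tumor of NK cell-competent mice (linear axes from 0, bars are means). Xcl1 was 1.20 to 2.996% in Ptgs+/+ tumors and 5.94 to 11.3% in Ptgs-/- tumors, and Ccl4 and Ccl3 overlapped.

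Genes whose level followed each chemokine most closely were named by Pearson's r of log2 CPM over the 10 libraries, which share the 3 groups, and r is given as a description. Nearest to Xcl1 were Klra13-ps (r = 0.963), Klrb1f (0.951) and Ms4a4b (0.943), the first 2 from families of near-identical receptor genes whose counts are uncertain. Nearest to Ccl5 were Gm4759 (0.967), Lck (0.967) and Mroh1 (0.961). Nearest to Ccl4 were Rab5a (0.942), 2900093K20Rik (0.930) and Gm37169 (0.929), and to Ccl3 Btg1 (0.977), Khnyn (0.968) and Pi16 (0.916). For Ccr1 they were Itm2c (0.980), Alas1 (0.970) and Ube2g2 (0.969). Among EB046 libraries alone, all 3 genes were named again for Ccr1, 2 for Ccl3, 1 for Xcl1 and 0 for Ccl4 and Ccl5. The names nearest to Ccl4 and Ccl5, and most of those nearest to Xcl1, thus rest on the full set of libraries.

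Flt3l lies at chr7:45129788-45136432, minus strand, under the identifier ENSMUSG00000110206 in the annotation used here. The row that overlaps it, ENSMUSG00000089989, is named Gm45713, a read-through transcript at chr7:45125922-45136231. Of its 1477 exonic bases, 58.0% lie in Flt3l exons and 42.0% in exons of Rpl13a, a ribosomal protein gene, and its 3′ end, which these libraries read, lies in Rpl13a. These overlaps are those of GENCODE M21, whereas the deposited counts were made on an older Ensembl annotation that may define or name this row differently, so how far the row holds reads of Flt3l is not known. The row had 13.3, 10.5, 12.7 and 11.8 CPM in Ptgs+/+ tumors, 14.1, 30.3 and 21.6 CPM in Ptgs-/- tumors and 13.2, 20.7 and 18.8 CPM in NK cell-depleted tumors. Its log2 fold change with COX loss was 0.86 (standard error 0.24, adjusted p = 0.0216, edgeR), lost without Ptgs-/- replicate 2 (0.58, adjusted p = 0.109), without Ptgs+/+ replicate 2 (0.80, adjusted p = 0.0613) and among EB046 libraries (0.90, adjusted p = 0.0789), and it was 0.32 between NK cell-competent and NK cell-depleted tumors (adjusted p = 0.691, edgeR).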

How the data were processed

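Bulk RNA of 10 tumors was sequenced as QuantSeq 3′ libraries. The authors used BBDUK, fqtrim and cutadapt for trimming, STAR for alignment to GRCm38 and featureCounts for counting on Ensembl genes, and the submitters' processing notes also name mm10, bcl2fastq and edgeR. The deposited values are raw gene counts of each tumor, neither normalized nor pooled. Use of strand, of reads that map to several genes and of molecular identifiers is not given in the sources used here, so counts of near-identical and antisense genes are uncertain. Groups were taken from the labels. The labels do not say whether replicates are separate cultures, and p-values measure the spread between these tumors.

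Rows were named by GENCODE M21 on GRCm38 (45143 of 45706 identifiers), and promoters came from RefSeq on GRCm38.p6. In R 4.3.3, edgeR 4.0.16 filtered genes (filterByExpr, 14550 kept), scaled libraries by TMM and fitted all 10 libraries and their 3 groups together, with its quasi-likelihood test and Benjamini-Hochberg adjustment over all genes tested. Genes were called at an adjusted p at or under 0.05, and also, after the study's methods, with a log2 fold change of 1.5 or more in size. Likeness used log2 CPM with a prior count of 2. Named genes are the 6 listed genes, their receptors, 4 other CC chemokines, the effector cytokines, Ptgs1, Ptgs2, Ncr1 and Klrb1c, at most 2 abundant genes of each marker list and the 3 genes most like each listed gene. Other genes, such as Prf1, Tyrp1 and Mlana, were named after their values were seen, because they had no count. Lta, Fasl and Batf3 were also described after their values were seen. The listed genes, gene lists and tests were chosen with earlier results of these data known. A receptor gene that this rule names is not reported here, and list counts leave it out. The fit was checked on simulated data. Alternatives were DESeq2 1.42.0, its size factors, library size alone, a likelihood ratio test, other filters, the label code as a term, EB046 libraries only, only the groups compared, a replicate block and each library left out. The study gives another antibody schedule than the labels, whose schedule is given here.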

Additional observations from a re-analysis of the deposited data

Results flagged for a closer look

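In Ptgs+/+ replicate 1, Xcl1 stood at 1.27 CPM, away from the other 3 Ptgs+/+ tumors (0.536 to 0.630 CPM). The gap to its nearest neighbor was 0.873 of the group's range, above Dixon's critical value for 4 samples. Ifng was at 0.209 CPM, 2 counts, in Ptgs+/+ replicate 4 and had no count in the other 3, which is under the floor of 3 counts. These are 2 of 20 genes looked at in the group of 4. For values with a normal spread, chance flags about 1 in 20. With no count in 3 of 4 tumors, any count in the other is flagged, so that rate does not hold for Ifng.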

How the results depend on the processing

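Xcl1, Ccl5 and Xcr1 kept their calls with COX loss in every alternative that gave a value, as did Ccl4, and Xcl1 and Ccl5 kept theirs against NK cell-depleted tumors. Xcl1 gave no value where 10 counts were asked of every library. No direction of a called gene reversed. With 10 counts asked of every library, the listed genes called against NK cell-depleted tumors numbered 1 in place of 3, since that filter removes Xcl1 and Ccl4 had an adjusted p of 0.0544. The same filter left 38 in place of 59 list genes called with COX loss, 6 in place of 22 against NK cell-depleted tumors and 27 in place of 43 in NK cell-depleted against Ptgs+/+ tumors, among fewer genes tested. In that last comparison 1 listed gene, Ccl5, was called in place of 0 with no filter and with only the groups compared. Leaving out each library gave 3 listed genes called with COX loss throughout, 2 to 3 against NK cell-depleted tumors and 0 to 1 in the last comparison, and 48 to 64, 15 to 31 and 31 to 50 list genes.

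With the label number as a replicate block, 3, 3 and 0 listed genes were called in the 3 comparisons. Same-numbered tumors correlated between -0.244 and 0.355 in their deviations from the group means, so the numbers were not read as pairs. Over all genes, 3360 were called with COX loss (2062 to 3881 over the alternatives), 209 against NK cell-depleted tumors (42 to 411) and 1818 in the last comparison (909 to 2225). The causes of the spread in these counts were not tested. Of the values for single genes and the likeness counts together, 970 kept their side of the threshold or, for likeness, most of the names. A call was lost in 22 and gained in 16, and 3 likeness counts moved. Depth limits Ccl3, Ifng and the Xcl1 level outside NK cell-competent Ptgs-/- tumors, which rest on few counts.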
